A study of Homo sapiens with 12 samples.

Results

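An alternative 5' splice site is a choice between 2 donors that are joined to the same acceptor, so that the exon ends early or late. The donor nearer to the intron (the proximal donor) gives the longer exon, and the donor farther from it (the distal donor) gives the shorter exon, with the bases between them, here called the segment, left out. The deposited event table holds 7832 such choices. The 5645 with a mean of at least 20 junction reads per sample, summed over both junctions, are described here, out of 56092 splicing events of 6 kinds in the series. They are 72.1% of the listed alternative 5' events and hold 99.5% of their junction reads. They lie in 3259 genes, of which 2078 hold 1 event and 1181 hold several, and 1427 events (25.3%) share a junction with another event, so they are not independent of each other.

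All 4 groups came from 1 established human cell line, AsPC-1, which derives from a cancer of the pancreas. Cells in wells received either siARNT, an siRNA that targets ARNT, or a scrambled control siRNA (siControl), and were divided on the following day. ARNT encodes the subunit that HIF needs beside its oxygen-regulated alpha subunit. Cells were then kept at 21% O2 (normoxia) or moved to 1% O2 for 24 h (hypoxia), and RNA was taken 48 h after transfection. Each of the 4 groups has 3 libraries (A, B and C) of poly(A) RNA, and nothing in the labels says that they came from separate cultures beyond separate wells, so p-values measure the spread between these samples, which may be technical.

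In textbook terms, a donor is first recognised by base pairing with the RNA of the U1 snRNP, a particle of a ring of Sm proteins and the U1 proteins SNRNP70, SNRPA and SNRPC, and is then handed over to the U6 snRNA. Where 2 donors compete, SR proteins tend to favour the proximal donor and hnRNP A1 the distal donor, and factors such as TIA1, TIAL1 and the LUC7-like proteins help U1 at weak donors. HIF is the main transcription factor of the response to low oxygen, and ARNT is needed for it to bind DNA.

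The sequences below show what a distal donor looked like in 11 events that passed the test described further on and in 6 that stand for a class of donors. Each runs 5' to 3' from the 10 last exon bases before the distal donor into the segment, and the capitals mark the first 2 bases of the intron when the distal donor is used.
PARD3: ggacgtcagaGTatgtcagaaaaac
ARL6IP4: acatcccaagGTcgcaaggccagca
IL32: ggcccgaatgGTaatgctcctccct
TMC7: gcagcttgcgGTacgagctccga
NFAT5: agccgtggggGTaagtaacagaggg
RNF167: gcgagatcgaGTgagtacggctcgc
CASP8: ttggatgcagGTacagtagaaccca
UBQLN1: tgctgcacagGTgagtttgtaattg
RBM34: tgtgcctaaaGTaagtcactgggct
PABPC4: accgcaaagtGTgagtgtcccagtc
AMZ2: cagtccattgGTaaatactggtaat
SEC61G: tgtcggttggGTag
FBXO21: ggccttcaagGCag
ZBTB8OS: aagtacgagtGTga
PRRC2C: ggtcctaggtGTtg
EIF4G2: gaaaagccagGTaagtaatatttga
NONO: atatggaaagGCaggcgaagtcttc
The first 11 differ widely in how many of the 9 bases CAGGTAAGT, the textbook donor that pairs fully with U1, they hold at the distal donor. ARL6IP4 holds 4, while UBQLN1 holds 8. The next 4 are events whose donors lie 4 nt apart, and EIF4G2 (9 matches) and NONO (a GC donor) stand for donors of full and of unusual pairing.

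These bases were read from GENCODE 29 transcripts in GRCh38, in which 2752 of the 5645 events (48.8%) could be placed by gene and by the lengths of both introns. Spans given here run from the last exon base at one donor to that at the other. In PARD3, a polarity protein, the segment of 90 nt is coding (chr10:34337275-34337365, minus strand). In IL32, a cytokine, it is 198 nt of coding sequence (chr16:3067415-3067613, plus strand), and in NFAT5, the transcription factor of osmotic stress, 419 nt of coding sequence (chr16:69647167-69647586, plus strand). In RNF167, a ubiquitin ligase, the segment of 130 nt lies in the 5' UTR (chr17:4940230-4940360, plus strand). The segments of UBQLN1 (2835 nt, chr9:83666350-83669185, minus strand) and CASP8 (136 nt, chr2:201276968-201277104, plus strand) are annotated in retained-intron transcripts with no coding sequence.

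The donors of an event lay 60 nt apart at the median (quartiles 18 and 171 nt, range 1 to 7551 nt). A distance of 4 nt was the most frequent of those up to 12 nt, with 256 events, against 95 at 3 nt, 91 at 5 nt and 120 at 6 nt. Distances of 6, 9 and 12 nt, which keep the reading frame, held 120, 106 and 97 events, while 7, 8, 10 and 11 nt held between 51 and 67. In all, 2209 events (39.1%) had a distance divisible by 3.

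Usage is given as PSI, here the percent of an event's junction reads that join the proximal donor. Values of PSI are summarised over the 2539 events that are not set apart. Set apart are 3106 events (55.0%) in which a junction had 0 reads in 1 or 2 of the 3 libraries of a group. The share of the less used donor was 2.29% at the median in the set-apart events and 11.5% in the others. Of 9802 zeros beside a non-zero library of the same group, 2069, in 704 events, fell where the other libraries predicted 10 or more reads. The library hypoxia siARNT A had the fewest zeros, with 198 proximal and 439 distal junctions at 0, at 3.885 M junction reads. The other 11 libraries had 267 to 506 proximal and 709 to 1173 distal ones, at 3.02 to 6.56 M junction reads per library. Of these, normoxia siARNT A had the most reads (6.56 M) and 709 distal junctions at 0. The cause of the zeros was not tested.

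Over the events not set apart, the proximal donor was the more used one in 60.2%, with a median PSI of 69.3% (quartiles 20.5 and 92.8%), and 1382 events had a PSI between 10 and 90%. The median PSI was higher the farther apart the donors were. It was 38.0% at 4 nt, 54.1% at other distances up to 12 nt, 66.2% at 13 to 50 nt, 72.8% at 51 to 150 nt and 77.7% over 150 nt. Quartiles overlapped widely between all 5 classes, and across events the rank correlation of PSI with distance was 0.115 (n = 2539 events that share libraries). The 71 events just inside the minimum of reads (20 to 20.9 reads) had a median PSI of 49.0%, and the 74 just outside it (19 to 19.9 reads) one of 47.2%.

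**Figure D1:**
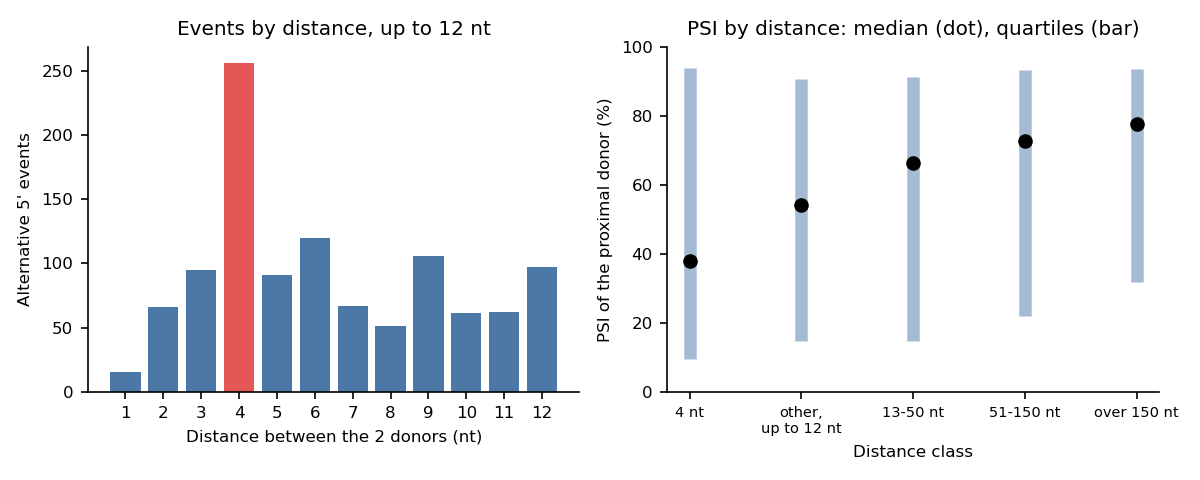
Left, the number of alternative 5' events at each distance between the 2 donors from 1 to 12 nt, with 4 nt in red. Right, PSI of the proximal donor in percent by distance class, as the median (dot) and quartiles (bar) over events not set apart. The bar at 4 nt (256 events) is the highest, and the median PSI goes from 38.0% at 4 nt to 77.7% over 150 nt while the quartiles overlap.

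Donors 4 nt apart share bases, since the second donor begins 4 bases into the first. Of the 256 events at this distance 94 were placed, and the 4 bases between the donors read GTAG in 29 of them, GCAG in 15, GTTG in 9, GTGA in 9 and GTGG in 8. The 19 GTAG events that were not set apart spanned nearly the whole range of PSI, from 2.29 to 96.7% with a median of 35.8%. The 4 GTAA events stayed between 10.4 and 17.5%, so the distal donor took most reads in each of them. The 7 GTTG events had a median of 95.2% with 1 as low as 34.0%, and the 5 GTGA events one of 9.35%, at most 37.1%.

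Of the examples printed above, which were chosen after their values were seen, SEC61G, a subunit of the ER translocon, had a PSI of 86.5 ± 3.45% in normoxia siControl (SD, n = 3) for a GTAG segment in its 5' UTR. ZBTB8OS, the archease that activates the tRNA ligase, used its proximal donor in 11.0 ± 1.89% for GTGA. PRRC2C stood at 95.6 ± 1.39% for GTTG and FBXO21, part of a ubiquitin ligase, at 99.2 ± 0.188% for GCAG. The remaining 3 groups of libraries gave values from 86.7 to 88.3% in SEC61G, from 6.59 to 9.69% in ZBTB8OS, from 96.0 to 97.4% in PRRC2C and from 97.4 to 99.0% in FBXO21.

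The distal donor began with GT in 2631 of the placed events (95.6%) and with GC in 118 (4.29%), and the median PSI was 67.7% over GT and 80.1% over GC events not set apart. Among the 1658 events with 9 readable bases, the proximal donor was used less where the distal donor was nearer to CAGGTAAGT, up to 7 matches. The median PSI was 86.8% for 4 or fewer matches (154 events), 74.0% for 5 (528), 64.3% for 6 (634) and 51.3% for 7 (293). The 49 events with 8 or 9 matches departed from this order with 77.1%. The rank correlation across these events was -0.127, and quartiles overlapped between neighbouring classes. GTAAGT stood at the distal donor in 4.70% of these events (median PSI 65.5%) and GTGAGT in 7.36% (44.8%), both on the transcript strand. The intron bases of proximal donors were not read, because no genome sequence was used.

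How often both donors were in use is given by where the segment lies. Of the placed events 1193 had a segment within coding sequence, 640 within the 5' UTR, 322 partly in coding sequence, 62 in the 3' UTR and 535 in transcripts with no coding sequence. Distances divisible by 3 made up 51.5% of the coding and 33.8% of the 5' UTR events. A PSI between 10 and 90% was found in 60.8% of 434 in-frame coding events but in 39.9% of 323 coding events that break the frame, whose median PSI was 90.3% against 76.0%. In the 5' UTR, the share was 79.8% of 163 events divisible by 3 and 78.1% of 306 others, with medians of 58.7 and 52.6%. The place was read from a transcript that uses the proximal donor, a protein-coding one where available. Whether a segment counts as coding therefore depends on how the proximal form is annotated, which is not independent of its use. These shares describe the annotated and placed events and were not tested, nor was the part that this placing has in them.

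**Figure D2:**
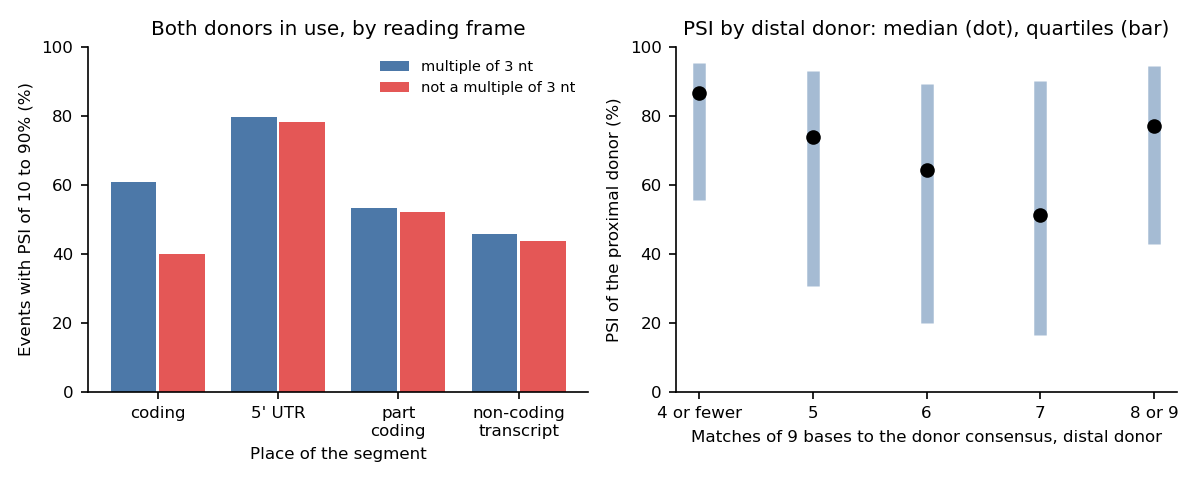
Left, the percent of events not set apart with a PSI of 10 to 90%, by where the segment lies and by whether its length is a multiple of 3. Right, PSI of the proximal donor in percent by the number of matches of the distal donor to the 9-base consensus, as median (dot) and quartiles (bar). Coding events show a gap between in-frame (60.8%) and other (39.9%) segments that 5' UTR events (79.8 and 78.1%) lack, and the median PSI falls to 51.3% at 7 matches before it is higher at 8 or 9.

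The medians of the 4 groups lay within about 1 point of each other. The median PSI over the 2539 events was 69.6 and 69.1% with siControl and siARNT in normoxia and 69.4 and 70.1% in hypoxia, and the median SD over 3 libraries of a group was 2.32 to 2.73 percentage points. The median size of a difference between groups was of the same order. It was 1.73 points for hypoxia in siControl, 1.62 for hypoxia in siARNT, 1.76 for siARNT in normoxia and 1.89 for siARNT in hypoxia. Differences of at least 10 points were seen in 142, 118, 158 and 158 events in the same order. The 3 libraries of the groups compared did not overlap in 12.2, 11.3, 15.9 and 13% of the events. Not overlapping together with a difference of at least 10 points occurred in 2.44, 2.05, 3.74 and 2.8%. With 3 libraries against 3, a lack of overlap is also frequent where no true difference exists. Here and below it describes the values and is not evidence of a shift by itself.

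Each event was tested with edgeR's quasi-likelihood test for a change in the odds of the proximal over the distal junction, with Benjamini-Hochberg adjustment and a call at an adjusted p under 0.05. With all 5645 events in the fit, 0 events (0%) were called in any of the 5 comparisons, and 174 to 252 events per comparison, or 3.08 to 4.46%, had an unadjusted p under 0.05, a share below that threshold. On the same events DESeq2 called 5 events for hypoxia in siControl, 17 for hypoxia in siARNT, 14 for siARNT in normoxia, 21 for siARNT in hypoxia and 18 for the interaction, and limma on log2 odds called 2, 6, 3, 3 and 3. This fit shares its estimate of spread with the events whose junctions drop to 0 in single libraries. A second fit without the set-apart events was therefore used to name events, and events were named from it with 0 calls standing in the fit of all events.

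Without the set-apart events, hypoxia gave few calls. In siControl cells 2 of 2539 events (0.0788%) were called, 1 with the proximal donor higher (0.0394%) and 1 with it lower (0.0394%), and in siARNT cells 4 (0.158%). Of the 2539 events, 182 and 170 had an unadjusted edgeR p under 0.05. Both shares lie above that threshold, unlike those in the fit of all events. All 6 of these calls were events with a junction at 0 in every library of a group, so 0 calls were left among events whose junctions were both detected in all 12 libraries. DESeq2 called 2 and 3 events in this set, and limma 2 and 6.

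The ARNT siRNA gave more calls. ARNT itself was lower in every siARNT library, at 13.4 ± 0.560 CPM (counts scaled to the library's total) against 62.4 ± 1.53 in normoxia (SD, n = 3) and at 15.3 ± 1.04 against 69.1 ± 3.81 in hypoxia. In normoxia 25 events (0.985%) were called, 7 with the proximal donor higher (0.276%) and 18 with it lower (0.709%). In hypoxia 16 (0.63%) were called, 4 higher (0.158%) and 12 lower (0.473%). Leaving aside events with a junction at 0 in a whole group, 20 calls were left in normoxia (5 higher, 15 lower) and 13 in hypoxia (2 higher, 11 lower). When the fit itself held only events with no junction at 0, it called 16 in normoxia and 8 in hypoxia. The same fit without set-apart events called 1.22% of 3535 alternative 3' events for siARNT in normoxia, 0.736% for siARNT in hypoxia, 0.141% for hypoxia in siControl, 0.226% for hypoxia in siARNT and 0.0849% for the interaction.

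The normoxia count rests on single libraries. It was 7 without normoxia siARNT B, 16 without normoxia siARNT C, and 10, 13 and 15 without normoxia siControl A, B and C. The hypoxia count was 7 without hypoxia siControl A, and DESeq2 called 5 and 8 events in normoxia and hypoxia.

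SAT1, the rate-limiting acetyltransferase of polyamine breakdown, shifted to its distal donor with siARNT at both oxygen levels. Its donors lie 520 nt apart (chromosome X, proximal 23802520, distal 23802000, acceptor 23803445, in the build of the files, which is not named there). The PSI was 57.7, 56.4 and 56.1% in the normoxia siControl libraries A, B and C and 35.3, 39.1 and 38.3% in the normoxia siARNT ones. In hypoxia it was 53.6, 52.0 and 58.5% with siControl and 35.7, 35.4 and 30.8% with siARNT. All 6 siARNT libraries lay below all 6 siControl libraries. The proximal donor fell by 19.2 points in normoxia (log2 odds -1.14, SE 0.17, edgeR adjusted p = 1.46e-05) and by 20.7 points in hypoxia (-1.22, SE 0.19, adjusted p = 9.35e-05), and both calls held in DESeq2, in limma and with each library left out. The read coverage of the segment relative to the constant exon comes from the same libraries as the junction counts and is not independent of them. It was 0.375 ± 0.0140 with siControl and 0.313 ± 0.0245 with siARNT in normoxia, and 0.413 ± 0.0111 and 0.347 ± 0.00807 in hypoxia (SD, n = 3). With either siRNA its mean was higher in hypoxia than in normoxia, while the PSI of those groups overlapped. The level of SAT1 as a gene was higher with siARNT, by a log2 fold change of 0.36 in normoxia (adjusted p = 0.00912) and 0.40 in hypoxia (adjusted p = 0.00246).

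RBM39, a splicing factor related to U2AF2, was called at both oxygen levels at a pair of donors 299 nt apart. In normoxia its PSI was 39.6, 36.5 and 36.6% with siControl and 28.7, 25.6 and 26.0% with siARNT, and in hypoxia 35.4, 32.8 and 31.6% against 22.8, 22.3 and 18.5%. The groups did not overlap at either oxygen level. The log2 odds were -0.72 (SE 0.17, edgeR adjusted p = 0.0187) and -0.89 (SE 0.18, adjusted p = 0.00255), the normoxia call was lost without normoxia siARNT B or C or any normoxia siControl library, and the hypoxia call was lost without hypoxia siControl A. The RBM39 gene had a log2 fold change of -0.19 with siARNT in normoxia (adjusted p = 0.102) and fell by 0.31 in hypoxia (adjusted p = 0.011).

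DDX5, an RNA helicase that acts on the U1-donor duplex, was the third event called at both levels, with donors 1461 nt apart and nearly all reads on the proximal one. Its PSI was 98.3, 98.6 and 98.2% with siControl and 96.5, 95.7 and 96.8% with siARNT in normoxia, and 99.5, 99.1 and 98.6% against 97.7, 97.7 and 97.9% in hypoxia. The distal share was thus higher in each siARNT library than in the siControl libraries of the same oxygen level. The edgeR adjusted p was 0.0115 and 0.0409. The normoxia call was lost without normoxia siARNT B or normoxia siControl A or B, and the hypoxia call without any library of hypoxia siARNT or without hypoxia siControl A or B.

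ARGLU1, an RNA-binding splicing regulator, was called in hypoxia, at donors 1873 nt apart. The PSI was 16.9, 15.3 and 18.8% in hypoxia siControl against 4.48, 2.26 and 4.00% in hypoxia siARNT, and 10.0, 11.7 and 14.1% against 4.96, 6.11 and 4.08% in normoxia. The siARNT libraries lay below the siControl libraries at both oxygen levels. The log2 odds were -2.43 in hypoxia (SE 0.42, edgeR adjusted p = 0.000468, at most 0.0104 with a library left out) and -1.31 in normoxia (SE 0.37, adjusted p = 0.0762). Between 3 and 20 reads per library joined the proximal donor. Coverage of the segment was 0.647 ± 0.0416 and 0.448 ± 0.0217 of the constant exon in hypoxia (SD, n = 3), and the gene level did not pass the test (log2 fold change 0.03, adjusted p = 0.849).

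CYP3A5, a drug-metabolising cytochrome P450, had donors 1749 nt apart with 615 reads per sample. In hypoxia its PSI was 26.9, 34.5 and 30.5% with siControl and 18.1, 17 and 17.7% with siARNT, and in normoxia 27.9, 30.8 and 30.2% against 21.2, 25.1 and 25.3%. No siARNT library reached the siControl range at the same oxygen level. The fall passed the test in hypoxia (log2 odds -1.04, SE 0.19, edgeR adjusted p = 0.000982), and in normoxia the adjusted p was 0.345. The gene was lower too, by 0.89 on the log2 scale in hypoxia (adjusted p = 3.62e-06).

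PRPF4B, a kinase of the spliceosome, and SF3B1, the U2 snRNP protein that holds the branch point, were called in hypoxia as well. The PSI of PRPF4B (334 nt) was 95, 87.8 and 98.2% in hypoxia siControl and 72.6, 72.2 and 59.1% in hypoxia siARNT, on 63.8 reads per sample, with no overlap. That of SF3B1 (1532 nt) was 7.84, 8.01 and 5.93% against 3.55, 2.87 and 3.28%, again with no overlap. In normoxia the groups overlapped in both genes, with means of 84.0 and 75.6% in PRPF4B and 5.57 and 5.40% in SF3B1. The edgeR adjusted p was 0.000734 and 0.00234, and neither call was lost when a library was left out. The difference between the oxygen levels was not called for either event.

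**Figure D3:**
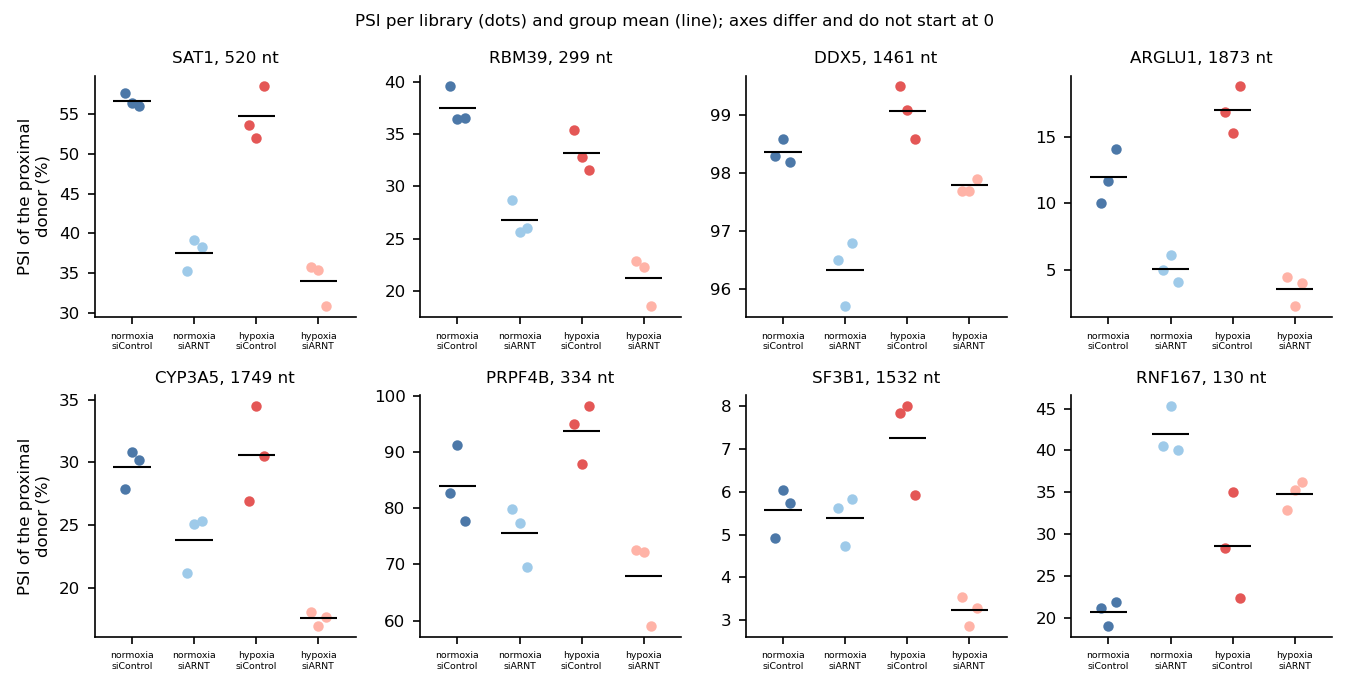
PSI of the proximal donor in percent (each axis has its own range and does not start at 0) for 8 called events in the 4 groups, 1 dot per library and a line at the group mean. In SAT1, RBM39, DDX5 and ARGLU1 the siARNT dots lie below the siControl dots at both oxygen levels, while in SF3B1 the normoxia groups overlap and in RNF167 the siARNT dots lie higher in normoxia.

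The other events called in normoxia with the proximal donor lower included those in NPIPA1, PRKCSH, IL32, NFAT5, PARD3, UBQLN1, RBM34, DSC2, TMEM176A, CASP8 and ENSG00000255054. The fall was largest in PRKCSH, the beta subunit of glucosidase II, from 37.5 ± 8.23 to 8.07 ± 6.43% (SD, n = 3), on 24.6 reads per sample. NPIPA1 fell from 40.1 ± 1.71 to 19.8 ± 2.85% and held with each library left out, but it has near-identical copies in the genome, so its junction reads are uncertain. IL32 went from 85.4 ± 1.99 to 76.4 ± 3.87%, PARD3 from 80.7 ± 3.13 to 70.0 ± 1.88% and NFAT5 from 93.5 ± 1.24 to 83.8 ± 3.14%. In these 3 genes the siARNT mean was also lower in hypoxia, at 73.6, 71.6 and 86.1% against 82.5, 79.8 and 89.8%, where none was called.

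The events with the proximal donor higher in normoxia siARNT were in RNF167, ARL6IP4, TMC7, SREK1 and ADRM1. RNF167 had a PSI of 21.2, 19.1 and 21.9% with siControl and of 40.5, 45.3 and 40.0% with siARNT, a rise of 21.2 points (log2 odds 1.46, SE 0.34, edgeR adjusted p = 0.0188). The 2 groups lay far apart, though on 66.4 reads per sample, and the call was lost without normoxia siARNT B or without any 1 of the 3 siControl libraries. ARL6IP4, a protein of the nuclear speckles, rose from 5.88 ± 0.901 to 16.5 ± 5.63%, SREK1, an SR-related splicing protein, from 86.9 ± 2.04 to 92.7 ± 1.25%, and TMC7 from 83.1 ± 1.22 to 90.4 ± 0.614% (SD, n = 3). ADRM1, a ubiquitin receptor of the proteasome, went from a low distal share to a lower one, by 2.37 points. In hypoxia the siARNT mean was 34.8 against 28.6% with siControl in RNF167, 13.1 against 12.7% in ARL6IP4 and 90.4 against 87.9% in TMC7. There the groups overlapped in RNF167 and ARL6IP4 but not in TMC7, and none of these events was called.

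Other calls in hypoxia with the proximal donor lower were in AMZ2, FNTA, PABPC4 and ENSG00000108296.7, the last from 31.4 ± 7.34 to 12.0 ± 1.47%. PABPC4, a cytoplasmic poly(A)-binding protein, went from 7.77 ± 3.96 to 2.59 ± 0.369% at a segment of 137 nt that is partly coding, while its gene level rose by 1.64 on the log2 scale (adjusted p = 2.65e-09). AFF4, a subunit of the super elongation complex, and ENSG00000263809 had the proximal donor higher, by 5.44 and 14.8 points.

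The distance between the donors did not enter the test. In all, 12 of the 20 normoxia calls and 10 of the 13 hypoxia calls had donors over 150 nt apart, against 28.99% of the events tested, and in all 12 and all 10 the proximal donor was lower with siARNT. Over the 731 events of this distance class with both junctions in every library, the proximal donor was lower in 58.1% in normoxia (median difference -0.37 points) and in 58.8% in hypoxia (-0.52 points), against 48.6 and 51.1% of all such events. With hypoxia it was lower in 49.1% of the long class in siControl and in 52.8% in siARNT, against 46.6 and 50.6% of all such events. The events of this class had a median of 96.0 reads per sample, and those of the other classes 121 to 150.

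The siARNT comparisons at the 2 oxygen levels share no library, but wells were divided after transfection, so both levels may hold cells of the same transfections and are not independent of them. All 20 normoxia calls had the same sign in hypoxia and 12 of the 13 hypoxia calls had it in normoxia, while 56.3% of all events had the same sign at both. The groups of the other oxygen level did not overlap and had that sign in 13 of the 20 and in 8 of the 13, against 8.35 and 10.2% of all events. The sizes were smaller there: the 20 normoxia calls had a median size of 8.13 points in normoxia and 3.16 in hypoxia, and the 13 hypoxia calls 12.0 points in hypoxia and 2.95 in normoxia. SAT1, RBM39 and DDX5 count in both sets.

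**Figure D4:**
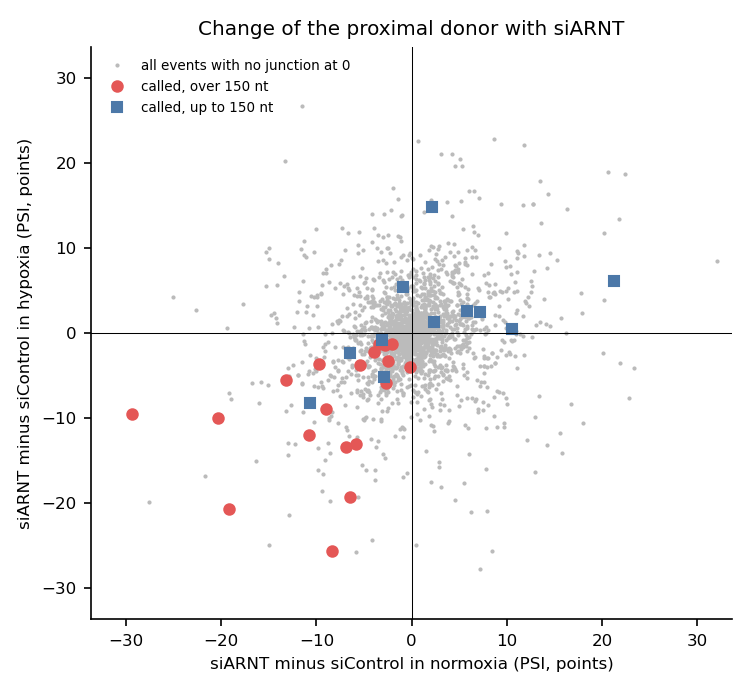
The difference in PSI of the proximal donor, siARNT minus siControl in percentage points, in normoxia (x) and in hypoxia (y), for each event with no junction at 0 (grey dots). Called events are red circles (donors over 150 nt apart) or blue squares (up to 150 nt), and all red circles lie in the lower left quadrant, where the proximal donor is lower at both oxygen levels.

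The interaction, which asks whether the effect of siARNT differed between oxygen levels, called 3 events (0.118%), 2 with a positive value (0.0788%) and 1 with a negative one (0.0394%), all with a junction at 0 in every library of 1 group. There are 13 events of this kind, and how a junction came to be listed at 0 in all libraries of a group, beside high counts in other groups, is not given in the sources used here. The same holds for the hypoxia calls above, so these values are given as listed. Events with zeros in part of a group were set apart, so events with zeros entered this fit only where the zeros filled whole groups. That rule selects for a separation of groups, and the p-values of these 13 events do not allow for it. In EEF1A1, the translation elongation factor, 532 to 898 reads joined the distal donor in the normoxia siControl libraries and 0 in the other 9, where 35016 or more reads joined the proximal one. In RPL10, a ribosomal protein, the distal donor had 0 reads in normoxia siControl and 71 to 145 in the other 9 libraries. In GPRC5A, a retinoic acid-induced receptor, it had 106 to 171 reads in normoxia siARNT and 0 elsewhere. The PSI was at least 96.0% in every library in each of these events, and EEF1A1, RPL10 and RPL7 have many processed copies in the genome. In SFSWAP, a splicing regulator, the proximal donor was seen only with siARNT: 1 to 8 reads in normoxia and 7 to 12 in hypoxia, against 0 in all 6 siControl libraries, with a call in hypoxia (edgeR adjusted p = 0.00238) that was lost without hypoxia siControl A.

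Among the genes that recognise or regulate donors, 25 of the 41 listed held 62 events, of which 33 were not set apart. Of the 33, 0 were called for hypoxia in siControl, 1 for hypoxia in siARNT, 1 for siARNT in normoxia, 2 for siARNT in hypoxia and 0 for the interaction, where 0.0788, 0.158, 0.985, 0.63 and 0.118% of all 2539 events were called. The calls were DDX5 and LUC7L3, and nothing particular to the list is read from counts this small. LUC7L3, a U1 partner, had 6 to 8 reads on its distal donor in hypoxia siARNT and 0 in the other 9 libraries. It is thus among the events above that stayed in the fit because their zeros filled whole groups. The median size of a difference over the 33 was 1.04 to 1.33 points in these 4 comparisons, against 1.62 to 1.89 over all events. TIAL1 (233 nt) had a PSI of 12.9 ± 0.871 and 9.05 ± 0.729% with siControl and siARNT in normoxia without overlap (SD, n = 3), at an edgeR adjusted p of 0.257. In a wider list of 60 splicing regulators, 54 events were not set apart. Of these, 0 were called for hypoxia in siControl, 1 for hypoxia in siARNT, 1 for siARNT in normoxia, 3 for siARNT in hypoxia (RBM39, SF3B1 and LUC7L3) and 0 for the interaction, beside the same shares over all events.

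HNRNPC, whose 2 donors 39 nt apart give the C1 and C2 proteins, showed differences of similar size with siARNT at both oxygen levels. They were larger than the median difference over all events. The proximal donor, which gives C2, stood at 27.2 ± 0.464 and 32.8 ± 0.556% with siControl and siARNT in normoxia and at 27.7 ± 1.10 and 33.1 ± 1.09% in hypoxia (SD, n = 3). The groups did not overlap at either level, on 2596 reads per sample. The edgeR adjusted p was 0.436 and 0.576, so this event did not pass. Coverage of its segment was 0.259 ± 0.00305 and 0.315 ± 0.0156 of the constant exon in normoxia.

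HIF targets held few usable events. Of the 44 listed genes 14 had a total of 25 events, 7 of them not set apart, and 0 were called in any comparison with edgeR in the fit without set-apart events. The most read events of GAPDH, LDHA, PKM and ENO1 had a PSI from 94.9 to 100% in each group mean. In LDHA the mean of 94.9% in hypoxia siControl had an SD of 8.79 points, and the event is set apart. Another PKM event, at donors 568 nt apart and chosen after its values were seen, stayed between 89.8 and 90.7%, and the 282 nt choice of EGLN3, an oxygen-sensing hydroxylase, between 89.1 and 92.0%.

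The levels of the recognition genes were tested as well. Of the 41 genes, all tested with edgeR on gene counts, 12 fell and 3 rose with hypoxia in siControl cells, where 25.3% of 16999 genes were called, 10.4% up and 14.9% down. In a bulk sample, fewer cells of a type and less RNA per cell cannot be told apart. The fall was found in 5 of the 7 Sm ring genes and in SNRPC. SNRPD1 was at 121, 116 and 113 CPM in normoxia siControl and at 74.4, 72.0 and 74.8 in hypoxia siControl, a log2 fold change of -0.66 (SE 0.05, adjusted p = 4.3e-06). SNRPG fell by 0.57, SNRPF by 0.50, SNRPE by 0.41, SNRPD3 by 0.26 and SNRPC by 0.41 on the log2 scale. SNRPB and SNRPD2 did not pass, nor did SNRPA and SNRNP70. DDX5 (-0.42), EFTUD2 (-0.36), SRPK1 (-0.37), SRSF2 (-0.27), SRSF7 (-0.22) and METTL16 (-0.21) were the others that fell. The calls of SRPK1, SRSF2 and METTL16 were lost with a library left out.

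The kinase CLK1, which phosphorylates SR proteins, rose by 0.76 with hypoxia in siControl cells, from 98.8, 90.2 and 97.4 CPM to 165, 161 and 159. RBFOX2 rose by 0.30 and HNRNPH1 by 0.20, though the HNRNPH1 call was lost with a library left out. In siARNT cells hypoxia gave 4 calls in the list (4.09% of all genes were called, 2.21% up and 1.89% down), with CLK1 (0.42) and RBFOX2 (0.26) higher and SNRPD1 (-0.30) and SRSF2 (-0.33) lower. These 4 rest on single libraries, since 0 were left without hypoxia siARNT A or without hypoxia siARNT B, and 2 without each of normoxia siARNT A and C and normoxia siControl A, B and C.

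With siARNT in hypoxia 10 of the 41 genes rose and 8 fell, where 29.1% of all genes were called, 14.4% up and 14.7% down. The Sm genes SNRPD3 (0.50), SNRPF (0.46), SNRPD1 (0.44) and SNRPG (0.34) and the U1 gene SNRPC (0.37) were among those that rose. LUC7L (-0.36), LUC7L2 (-0.45), TIA1 (-0.44), CLK1 (-0.45) and HNRNPH1 (-0.33) were among those that fell. In normoxia siARNT called 7 of the 41 (20.2% of all genes, 9.42% up and 10.8% down), with HNRNPH2 (-0.38), HNRNPA2B1 (-0.35), MBNL1 (-0.32), PRPF39 (-0.27) and SNRPE (-0.22) lower and HNRNPA1 (0.26) and SNRPD3 (0.21) higher. That count was 11 with DESeq2 and 4 in a fit of only the groups compared. It was 3 without normoxia siControl A or C, 4 without normoxia siControl B or normoxia siARNT B, and 11 to 13 without normoxia siARNT A, hypoxia siARNT A or hypoxia siARNT C.

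The interaction was called for SNRPG (0.49, SE 0.098, edgeR adjusted p = 0.0181), SNRPD1 (0.36, SE 0.071, adjusted p = 0.0165) and SNRPF (0.34, SE 0.082, adjusted p = 0.0386), where 4.69% of all genes were called. In each of them the level in hypoxia siControl was below all 9 other libraries. The count of 3 became 0 without normoxia siControl A, normoxia siControl C or hypoxia siControl A, 1 without hypoxia siControl B and 5 without normoxia siARNT B. Whether these gene levels bear on the choice of donors was not tested.

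**Figure D5:**
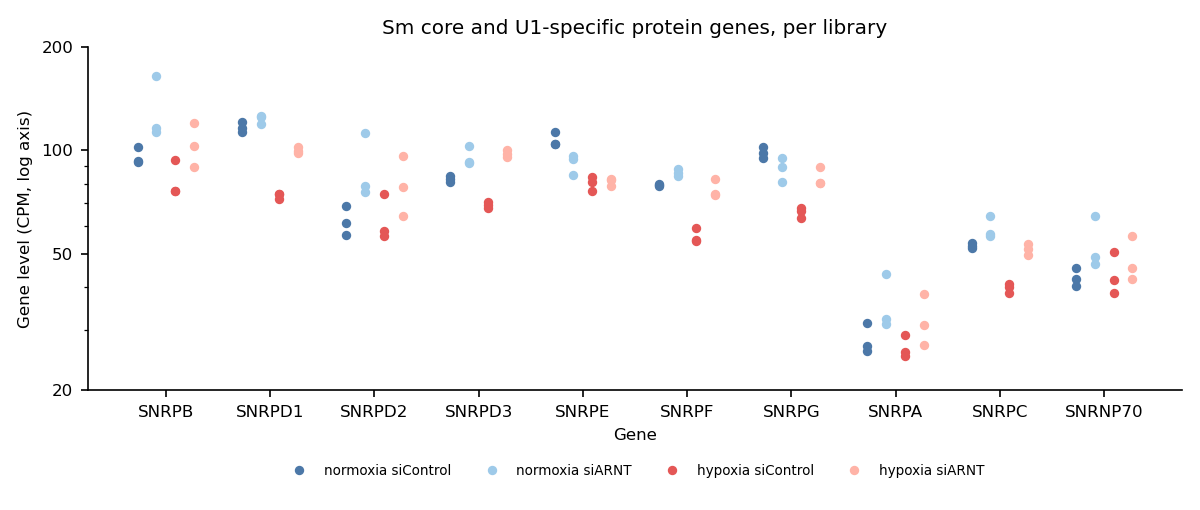
Gene level in CPM (log axis) of the 7 Sm ring genes and the U1 genes SNRPA, SNRPC and SNRNP70, 1 dot per library, coloured by group. The hypoxia siControl dots are the lowest in SNRPD1, SNRPD3, SNRPF, SNRPG and SNRPC, and in SNRPB and SNRPD2 the groups overlap.

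The libraries held 38.5 to 84.3 M reads counted in genes. Genes of pancreatic cancer epithelium were high (KRT8 at least 1140 CPM, EPCAM at least 794), while MUC1 (13.7 to 43.3 CPM) and KRT7 (at most 4.02 CPM) were lower. Those of leukocytes (PTPRC, CD3E, CD68 and ITGAM), fibroblasts (COL1A1, COL1A2, COL3A1, PDGFRB and DCN) and endothelium (CDH5, KDR and VWF) were at or below 1.02 CPM in every library.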

How the data were processed

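Junction counts of alternative 5' and 3' events, segment and exon coverage (signal) and PSI as a fraction were deposited by the authors, per the file headers. Gene counts per library are whole reads per gene ID, deposited by the authors. The submitters' processing notes name Trimmomatic, STAR 2.4.2a and GRCh38.p10, with the event caller not given in the sources used here. Event positions matched GRCh38 in 16 of 2752 placed events, so positions are printed as the files give them unless GRCh38 is named. The deposited fraction equals the share of 1 junction (within 0.0051 for 100% of values), and it was turned so that PSI always counts the proximal donor.

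Junction counts were fitted with edgeR 4.0.16 (R 4.3.3), both junctions of the 12 libraries in 1 quasi-likelihood model with a term per sample and the form by group. That design was tested on simulated data, where it recovered no changes with the set-apart events in the fit and recovered large ones without them, so the fit without them names events. DESeq2 1.42.0 and limma 3.58.1 (log2 odds, 0.5 added) were alternatives. Gene counts were fitted with edgeR and TMM, where rows that name no gene (22.7 to 25.2% of reads) were left out. Named events are, per comparison, the 8 largest rises and 8 largest falls among called events whose groups do not overlap (1 per gene), the 6 most read, and the most read of each listed gene. The rest of the called events are named from their values, except 1 that is not reported here. Events and lists were chosen with earlier results of these data known. Whether the letters A, B and C pair the libraries is not stated in the labels and was not settled by the correlations given below.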

Additional observations from a re-analysis of the deposited data

Results flagged for a closer look

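The interaction of siARNT with oxygen passed the test in 6 items, 3 events and 3 genes. For the events, which pass in the fit without set-apart events while the fit of all events calls 0, the fitted log2 odds of the interaction were -5.57 in DDX1, 9.70 in RPL7 and 9.16 in RPL10. Each has a junction at 0 in every library of a group, so these values depend on the prior count and are no bounds, and how those junctions came to be listed at 0 is not given in the sources used here. Events with zeros in only part of a group were not in that fit, a selection that the test does not allow for. In DDX1, an RNA helicase with donors 2 nt apart, the distal donor had 3 to 16 reads in normoxia siControl, 0 in normoxia siARNT, 6 to 8 in hypoxia siControl and 2 to 6 in hypoxia siARNT. In RPL7 it had 99 to 234 reads per library in 3 groups and 0 in hypoxia siARNT, and in RPL10 it was at 0 in normoxia siControl alone. For 3 Sm genes the interaction on the log2 scale was 0.34 in SNRPF, 0.49 in SNRPG and 0.36 in SNRPD1, from a lower level in hypoxia siControl than in the other groups.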

How the results depend on the processing

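Called events are given below in a fixed order: the effect of hypoxia with siControl, then with siARNT, the effect of siARNT at 21% O2, then at 1% O2, and last the interaction. With all 5645 events in the fit the count was 0 in each. It was 5, 17, 14, 21 and 18 with DESeq2, 2, 6, 3, 3 and 3 with limma, 1, 1, 1, 1 and 2 with the letters as a replicate block, and 2, 4, 25, 16 and 3 without the set-apart events. With 1 library left out, it ran from 0 to 0, 0 to 2, 0 to 1, 0 to 1 and 0 to 2. Other read minimums, library sizes, normalization and a minimum difference left it at 0.

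In the fit without the set-apart events, the following alternatives were chosen after seeing the data. A quasi-Poisson spread gave 6, 7, 50, 27 and 3 calls. DESeq2 gave 2, 3, 5, 8 and 4, and limma 2, 6, 10, 9 and 6. A difference of at least 10 points gave 0, 0, 8, 8 and 0, and events with no junction at 0 alone gave 0, 0, 16, 8 and 0. Fits of only the groups compared gave 4, 4, 27 and 13. The replicate block by letter gave 2, 5, 30, 23 and 3. A block that took libraries of the same siRNA and letter as the same transfected well, which the labels do not state, gave 2 and 4 for the oxygen comparisons. With 1 library left out the counts ran from 2 to 3, 3 to 5, 7 to 28, 7 to 20 and 2 to 3. Of the 25 calls in normoxia 20 were lost when at least 1 library was left out, and of the 16 in hypoxia 9, and no named call changed sign. Correlations of same-letter deviations ran from -0.154 to 0.133, and those of other letters from -0.176 to 0.206. Such weak values cannot exclude a pairing by letter. As a gene, PTBP1 was highest in library B in normoxia siControl, normoxia siARNT and hypoxia siControl, and in library C in hypoxia siARNT.

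For the 41 recognition genes, the counts were 15, 4, 7, 18 and 3. With siARNT in normoxia DESeq2 called 11, only the groups compared 4 and the letter block 15. With hypoxia in siARNT only the groups compared gave 0. The interaction gave 1 with no filter on low counts and 5 with total count scaling. With 1 library left out the counts ran from 11 to 20, 0 to 4, 3 to 13, 13 to 21 and 0 to 5. At the minimum of 20 reads per event, a rarely used donor rests on few reads.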

Other observations

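Values are given here for a pair of splicing regulators that did not pass the test. HNRNPH3 (45 nt, coding) had a PSI of 66.1 ± 1.15 and 72.3 ± 0.401% in normoxia and hypoxia siControl and of 64.5 ± 1.87 and 69.3 ± 0.571% in normoxia and hypoxia siARNT (SD, n = 3). U2AF1 (913 nt) had 74.2 ± 1.35 and 67.7 ± 3.52% in siControl and 76.9 ± 1.33 and 72.0 ± 0.513% in siARNT. The hypoxia and normoxia libraries of one siRNA did not overlap in either gene, and the edgeR adjusted p for hypoxia was 0.661 and 0.819 in HNRNPH3 and 0.615 and 0.742 in U2AF1.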
